A study of Mus musculus with 10 samples.

Results

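The 10 genes described here encode LIM-domain proteins and the adaptors that hold them together. They are the LIM-homeodomain genes *Isl1*, *Isl2*, *Lhx2* and *Lhx3*, the LIM-only genes *Lmo1*, *Lmo2*, *Lmo3* and *Lmo4*, and the LIM-domain-binding genes *Ldb1* and *Ldb2*. They were taken by symbol from the gene column of the count files, which list 34590 genes, and all 10 were found. Levels were measured by bulk RNA-seq of handpicked fluorescent cells from digested mouse cochleae, in 2 libraries for each of 5 cell types. Supporting cells (SCs, P26 and P27) came from Fgfr3iCreER+ mice with a Cre-dependent Rosa26 tdTomato reporter, in which tamoxifen at P12 and P13 lets Cre act in the cells where *Fgfr3* is active. Converted hair cells (cHCs, P33) carried in addition the Atoh1-HA+ transgene, which Cre switches on under the CAG promoter. They also carried the alpha9 AChR-EGFP+ hair cell reporter, with tamoxifen on the same days. By the study, cHCs were picked for both tdTomato and this reporter, and SCs for tdTomato. The cHCs were therefore chosen for a hair cell signal. OHCs (P7) and mature OHCs, named OHC (P22) here, came from prestin-YFPYFP/+ knock-in mice by the labels. The study's own sample list instead gives tamoxifen at P2 and P3 for the OHCs (P7), with a Prestin-CreERT2 driver. The labels give days 21 and 22 for the mature OHCs, against P22 and P23 in that list. IHCs (P74 and P75) came from Pval-Cre+ mice with the tdTomato reporter. No label lists an *Isl1* transgene, so *Isl1* counts in these libraries are of the endogenous gene.

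LIM-homeodomain factors bind DNA through a homeodomain, while their paired LIM domains hold protein partners. Ldb1, the main adaptor, forms dimers and bridges LIM-homeodomain factors bound to DNA, and LIM-only proteins, which lack a homeodomain, compete with those factors for Ldb1. In developing motor neurons Isl1, Lhx3 and Ldb1 assemble into a complex that activates motor neuron genes. In the inner ear, *Isl1* marks the early sensory and neuronal lineages, *Lhx3* is a gene of differentiating hair cells, and Lmo4 acts as a negative regulator of sensory organ formation. Isl1 is also the factor that the study tested as a partner of Atoh1.

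The libraries held from 15016129 to 40518766 counts on genes, and a floor of 3 counts lay between 0.0740 and 0.200 on the scale of counts normalised to library size (CPM), before further scaling. All CPM below are scaled by TMM factors, which ran from 0.583 in the OHC (P22) library of day 21 to 1.20 in cHC library 13. Libraries are named by the number in their titles, and those of OHCs (P22) and IHCs by the postnatal day in the title. These floors cover counting error only, since amplified reads are not independent molecules. In 4 of the 10 records the attached file bears the name of another library. Each file was assigned to the library in its file name, and its counts were a constant multiple of the study's CPM column of that library number. Sums of OHC, IHC and SC markers were each highest under their own label. Prestin (*Slc26a5*) was between 1061 and 3789 CPM in the 4 OHC libraries. *Slc17a8*, which encodes the IHC vesicular glutamate transporter, was at 1763 and 1907 CPM in IHCs. It was also at 26.3 to 75.5 CPM in OHCs, against 0.0444 CPM or less in SCs. The 3 OHC markers summed to between 4305 and 12293 CPM in OHCs. They summed to 154 and 132 CPM in cHCs and to 287 and 95.4 CPM in IHCs, against 9.80 and 29.8 CPM in SCs. Schwann cell and glia markers summed to 171 and 224 CPM in SCs, 102 and 186 CPM in IHCs and 8.66 to 80.2 CPM elsewhere. The hair cell marker *Pou4f3* was under 1 CPM in SCs and between 235 and 559.7 CPM elsewhere. Other hair cell markers were not absent from SCs, since the 6 listed summed to 359 and 361 CPM in SC libraries 11 and 12. In the hair cell libraries they summed to between 3748 and 9199 CPM. SC markers were not absent from IHCs, since the 7 listed summed to 863 and 684 CPM there. The sums ran from 1107 to 1767 CPM in SCs and from 814 to 1065 CPM in cHCs. They were 299 and 88.4 CPM in OHC (P7) libraries 14 and 15, and 4.80 to 16.3 CPM in OHCs (P22). Library titles were grouped here into 3 series by a prefix and by the library number. Of these, 1 holds all OHC (P22) and IHC libraries and no others, so for these cell types the type and the series cannot be told apart. With 2 libraries per cell type the smallest p of an exact permutation test is 0.333, so tests come from a model across all genes, adjusted over those tested (FDR). In such pooled samples, fewer expressing cells and less RNA per cell cannot be told apart. P values measure the spread between libraries, and the labels do not say whether cHC or OHC (P7) libraries came from separate animals.

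*Isl1* (ENSMUSG00000042258, mm9 chromosome 13 from 117088478 to 117099896, minus strand) was counted in all 10 libraries. In OHCs (P22) it reached 281 CPM in the library of day 21 and 236 CPM in the library of day 22. SCs held 120 CPM in library 11 and 143 CPM in library 12. Both of these cell types lay above all 6 other libraries. IHCs had 77.4 CPM in the library of day 74 and 25.7 CPM in the library of day 75, cHCs had 36.8 CPM in library 13 and 56.3 CPM in library 16, and OHCs (P7) had 48.9 CPM in library 14 and 18.6 CPM in library 15. The last 3 cell types overlapped one another. The group means were therefore ordered as 258 ± 32.2 CPM in OHCs (P22), 132 ± 16.2 in SCs, 51.5 ± 36.6 in IHCs, 46.6 ± 13.8 in cHCs and 33.7 ± 21.4 in OHCs (P7) (SD, n = 2 each). No pair of neighbours in this order differed at an FDR under 0.05, the values being 0.390, 0.337, 0.969 and 0.888 in the edgeR quasi-likelihood test.

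**Figure D1:**
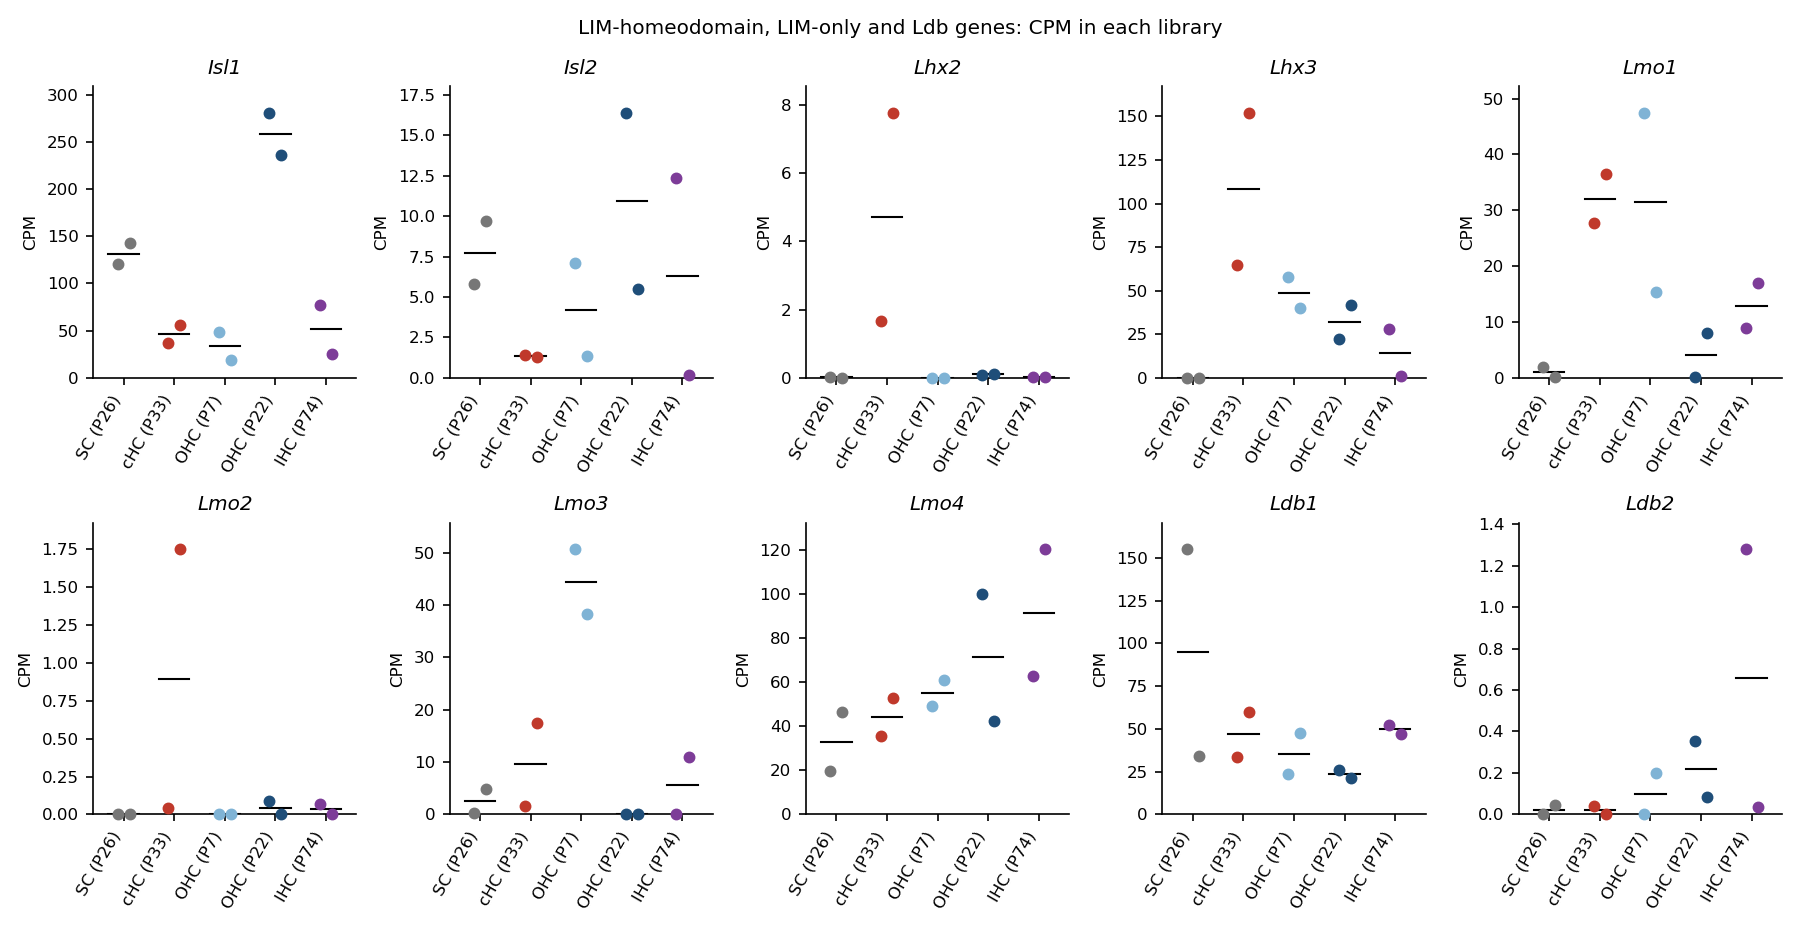
CPM (linear axes from 0) of the 10 genes, with 1 panel per gene. Points are libraries, placed by library number within each cell type, and black lines are means of 2 libraries. *Isl1* is highest in OHCs (P22) at 236 and 281 CPM, *Lhx3* is under 0.2 CPM in SCs alone, and *Lhx2* exceeds 1 CPM in cHCs alone.

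From cHCs to OHCs (P22), the comparison in which the study singled *Isl1* out, the 2 groups of libraries were far apart. The log2 fold change was 2.47 (SE 0.73, 95% interval 0.87 to 4.07), yet the FDR over all genes tested was 0.0990 with edgeR. It was 0.0388 with limma-voom, the method the study used, and 0.00979 with DESeq2, and it lay between 0.00979 and 0.421 over 16 alternatives to the test, filter and libraries. In all of these the log2 fold change stayed between 2.19 and 2.80. OHCs (P22) against OHCs (P7) gave 2.94 (SE 0.74, FDR = 0.119, from 0.00185 to 0.491 over alternatives), and IHCs against OHCs (P22) gave -2.33 (SE 0.72, FDR = 0.160, from 0.0173 to 0.604). From SCs to cHCs, in which only the converted cells carry Atoh1-HA, *Isl1* gave -1.50 (SE 0.70, FDR = 0.345). Within the title series that pair cHC library 13 with SC library 12 and cHC library 16 with SC library 11, the log2 difference in *Isl1* was -1.96 and -1.09.

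*Lhx3* (ENSMUSG00000026934, chromosome 2 from 26055732 to 26063769, minus strand) was nearly absent from SCs, with 7 counts in library 11 and 2 counts in library 12. In cHCs it had 64.9 CPM in library 13 and 152 CPM in library 16. OHCs (P7) followed with 58.0 CPM in library 14 and 39.9 CPM in library 15, and OHCs (P22) with 22.5 CPM in the library of day 21 and 41.6 CPM in the library of day 22. IHCs had 27.8 CPM in the library of day 74 and 1.34 CPM in the library of day 75, a 20.7-fold gap between libraries of the same cell type. Every hair cell library, converted or native, lay above both SC libraries. The order of the means was 109 ± 61.7 CPM in cHCs, 48.9 ± 12.8 in OHCs (P7), 32.0 ± 13.5 in OHCs (P22), 14.6 ± 18.7 in IHCs and 0.137 ± 0.0687 in SCs (SD, n = 2 each). Of the 4 steps between neighbours, only the last, from IHCs to SCs, passed the test, the first 3 having FDRs of 0.790, 0.847 and 0.678.

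*Lhx3* was higher than in SCs in all 4 hair cell types. The log2 fold change was 8.39 (SE 1.60, FDR = 0.0160) in OHCs (P7), 7.78 (SE 1.56, FDR = 0.0119) in OHCs (P22) and 6.64 (SE 1.49, FDR = 0.0418) in IHCs. In cHCs it was 9.54 (SE 1.67, FDR = 0.0135), with log2 differences of 8.64 and 9.19 within the separate title series. The 4 comparisons share the same 2 SC libraries, and the result leaned on them. Without SC library 11 the FDR of the cHC comparison was 0.0572, and without SC library 12 it was 0.0781, while the fold changes were 10.18 and 9.15. In OHCs (P7) the FDR became 0.0577 without SC library 11 and 0.0744 without SC library 12, and in OHCs (P22) it became 0.0427 and 0.0542. The IHC comparison had FDRs of 0.121 and 0.158 without these libraries. It also rested on the library of day 74, since without it the log2 fold change was 3.20 with an FDR of 0.295, and it did not pass with limma-voom (FDR = 0.175). Among the hair cell types, the fold change of *Lhx3* against cHCs ran from -1.15 in OHCs (P7) to -2.90 in IHCs, with FDRs between 0.362 and 0.790.

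The sequences just before the start sites of these 2 genes are shown because Atoh1 binds E-box motifs. From SCs to cHCs, which carry Atoh1-HA, the test of *Lhx3* passed and that of *Isl1* did not. Native hair cells, which do not carry Atoh1-HA, held *Lhx3* as well. The cHCs also differed from SCs in age, in carrying the hair cell reporter and in being picked by it. A part of Atoh1-HA in the level of *Lhx3* was not tested. RefSeq promoters were matched for 8 of the 10 genes. Each line is the 250 bases before a RefSeq start in GRCm38.p6, a different build from the mm9 of the counts, read 5′ to 3′ on the minus strand. Capitals mark E-boxes written CAGCTG, or CAGATG and its reverse complement CATCTG, and the homeodomain core TAAT with its reverse complement ATTA, in both orientations.
Isl1, chr13:116309689-116309938: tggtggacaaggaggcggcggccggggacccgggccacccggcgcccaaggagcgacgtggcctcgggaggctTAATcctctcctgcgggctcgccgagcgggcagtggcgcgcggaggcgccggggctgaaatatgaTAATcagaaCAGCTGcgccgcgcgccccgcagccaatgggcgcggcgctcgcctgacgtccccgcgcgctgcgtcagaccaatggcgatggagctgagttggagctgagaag
Lhx3 start 1, chr2:26208250-26208499: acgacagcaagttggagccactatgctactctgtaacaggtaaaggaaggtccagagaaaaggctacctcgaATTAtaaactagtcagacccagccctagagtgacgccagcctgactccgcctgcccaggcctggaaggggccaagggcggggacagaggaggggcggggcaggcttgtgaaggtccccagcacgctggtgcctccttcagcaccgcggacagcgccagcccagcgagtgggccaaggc
Lhx3 start 2, chr2:26206576-26206825: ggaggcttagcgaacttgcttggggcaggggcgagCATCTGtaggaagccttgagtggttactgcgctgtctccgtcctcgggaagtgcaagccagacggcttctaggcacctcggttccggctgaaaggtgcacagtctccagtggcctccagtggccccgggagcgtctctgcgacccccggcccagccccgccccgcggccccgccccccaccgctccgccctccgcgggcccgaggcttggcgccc
The *Isl1* window holds 1 CAGCTG and 2 TAAT letters, the first *Lhx3* window 1 ATTA and no E-box, and the second *Lhx3* window 1 CATCTG. Of 32851 RefSeq windows of this length, 13% hold CAGCTG, 14.4% hold CAGATG or CATCTG and 54.9% hold TAAT or ATTA, so none of these letters is rare, and nothing is drawn from them about binding.

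*Isl2* (ENSMUSG00000032318, chromosome 9 from 55386479 to 55393987), the close relative of *Isl1*, was far lower. It had 5.79 CPM in library 11 and 9.68 CPM in library 12 of SCs, and 16.4 CPM in the library of day 21 and 5.52 CPM in the library of day 22 of OHCs (P22). Both cHC libraries were low and close together, at 1.45 and 1.27 CPM. OHCs (P7) had 7.09 and 1.34 CPM, and IHCs had 12.3 CPM in the library of day 74 but 0.206 CPM in the library of day 75. Libraries of 1 cell type differed by up to 59.8-fold, and no comparison of *Isl2* had an FDR under 0.436 in edgeR.

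*Lhx2* (ENSMUSG00000000247, chromosome 2 from 38194801 to 38225253), a LIM-homeodomain gene known from eye, forebrain and hair follicle, was counted almost only in cHCs. Library 13 held 39 counts (1.66 CPM) and library 16 held 306 counts (7.77 CPM). The other 8 libraries held between 0 and 3 counts. As a ratio of summed counts, cHCs lay 413-fold above SCs, which had 1 count in all, with a 95% exact interval of 73.6 to 16341 for counting error only. Against OHCs (P7), with 0 counts in both libraries, cHCs were at least 114-fold higher, taking a floor of 3 counts over the group. The test did not carry this, with FDRs of 0.246 against SCs, 0.304 against OHCs (P7), 0.281 against OHCs (P22) and 0.341 against IHCs in edgeR. With limma-voom the first 2 were 0.0318 and 0.0445, and with DESeq2 the one against OHCs (P7) was 0.0365, over a range of 0.0318 to 0.718 for the SC comparison and 0.0365 to 0.885 for the OHC (P7) comparison. *Lhx2* passed the filter on low counts through the cHC libraries alone. Tests of cHCs against the other cell types were therefore not free of the filter, and their FDRs are given for description only.

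To compare genes with each other, CPM were divided by the length of the longest annotated transcript in kilobases (FPKM). *Isl1* had the highest level of the 10 in both OHC (P22) libraries, with a mean of 102 ± 12.7 FPKM (SD, n = 2). In the other cell types the leading gene differed between libraries or with the length used. By group mean *Isl1* led in SCs, at 52.2 ± 6.40 FPKM, but in SC library 11 it was at 47.6 FPKM and *Ldb1* at 67.6 FPKM. *Lhx3* led in cHCs, at 48.7 ± 27.7 FPKM, and with the total exon length in place of the longest transcript *Lmo1* was above it in library 13, at 25.8 against 21.6 FPKM. *Lmo4* led by group mean in OHCs (P7), at 33 ± 5.03 FPKM, yet *Lmo1* was above it in library 14, at 44.3 against 29.5 FPKM, and in the group mean by total exon length, at 29.4 against 16.7 FPKM. In IHCs *Lmo4* had 54.8 ± 24.5 FPKM, and by total exon length *Isl1* was above it in the library of day 74, at 30.6 against 19.0 FPKM. The level of *Isl1* relative to *Lhx3* split the cell types. It was under 1 in all 4 libraries of cHCs and OHCs (P7), at 0.499 and 0.326 in cHC libraries 13 and 16 and at 0.743 and 0.411 in OHC (P7) libraries 14 and 15. It was above 1 in mature OHCs, at 11.0 and 5.0 in libraries of days 21 and 22, and in IHCs, at 2.45 and 16.9 in libraries of days 74 and 75. SCs had *Isl1* with hardly any *Lhx3*. With the total exon length, OHC (P7) library 14 crossed to 1.003, just above 1, and the other ratios stayed on their side of 1. The split at 1 therefore held for all libraries with the longest transcript only. These ratios were not tested for a difference between cell types.

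**Figure D2:**
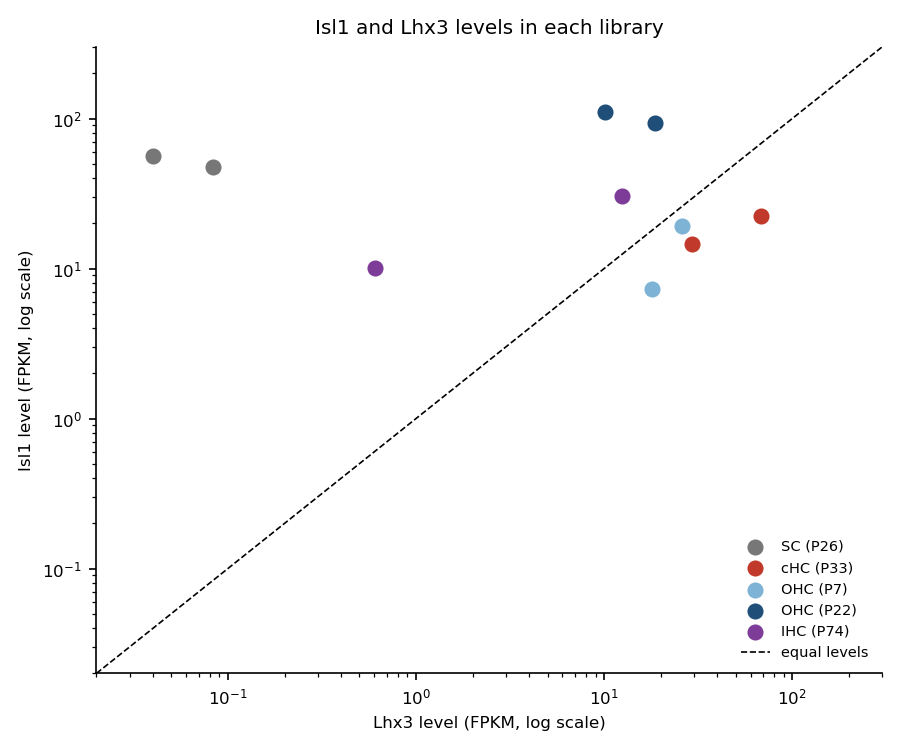
*Isl1* level against *Lhx3* level in each of the 10 libraries, both in FPKM on log axes, with cell types by colour and a dashed line of equal levels. The 4 libraries of cHCs and OHCs (P7) lie below the line, with *Isl1* to *Lhx3* ratios of 0.326 to 0.743, and the other 6 lie above it.

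As a share of the 4 LIM-homeodomain genes by FPKM, *Isl1* took 93.7% and 91.5% in SCs and 85.4% and 81.1% in OHCs (P22), but 32.2% and 23.6% in cHCs and 39.3% and 28.3% in OHCs (P7). *Lhx3* took 64.5% and 72.1% in cHCs and 52.9% and 68.9% in OHCs (P7), against 7.75% and 16.2% in OHCs (P22). IHC libraries were split, with *Lhx3* at 25.1% in the library of day 74 and 5.53% in the library of day 75.

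Of the LIM-only genes, *Lmo4* (ENSMUSG00000028266, chromosome 3 from 143851494 to 143868184) was present throughout, between 19.5 CPM in SC library 11 and 120 CPM in the IHC library of day 75. Its group means went from 32.9 ± 18.9 CPM in SCs through 44.2 ± 12.1 in cHCs, 55.1 ± 8.39 in OHCs (P7) and 71.2 ± 40.6 in OHCs (P22) to 91.4 ± 40.8 in IHCs (SD, n = 2 each). The ranges of most cell types overlapped, and the widest difference, of IHCs from SCs, was 1.48 (SE 0.78, 95% interval -0.23 to 3.18, FDR = 0.344) on the log2 scale.

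*Lmo1* (ENSMUSG00000036111, chromosome 7 from 116282086 to 116313822), first known as a T-cell leukemia translocation gene, followed *Lhx3* in part. It had 27.7 and 36.4 CPM in cHC libraries 13 and 16, and 47.5 and 15.4 CPM in OHC (P7) libraries 14 and 15. IHCs had 8.89 and 17.0 CPM. SCs had 1.99 CPM in library 11 and 0.133 CPM in library 12, below every library of those 3 cell types. The OHC (P22) libraries disagreed, with 7.96 CPM in the library of day 22 and 1 count in the library of day 21, a 90.3-fold gap. Against SCs the log2 fold change was 4.90 in cHCs (SE 1.97, FDR = 0.286) and 4.87 in OHCs (P7) (SE 1.96, FDR = 0.217). DESeq2 alone of the alternatives called them, with FDRs of 0.0142 and 0.0126, where the ranges over alternatives reached 0.608 and 0.518. The cHC to SC difference was 7.06 in one title series and 4.14 in the other.

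*Lmo3* (ENSMUSG00000030226, chromosome 6 from 138311439 to 138530489) was highest in young OHCs, at 50.7 CPM in library 14 and 38.3 CPM in library 15, above all other libraries. Mature OHCs had 1 count in the library of day 21 and 0 in the library of day 22. By summed counts OHCs (P7) lay 1895-fold above OHCs (P22), with an exact interval of 340 to 74888 for counting error only. The FDR of this comparison was 0.219 in edgeR, 0.000424 in DESeq2 and 0.00487 without the filter on low counts, and ran to 0.575 over the alternatives. In the other cell types 1 library of each pair carried most of the signal. cHCs had 1.57 CPM in library 13 and 17.6 CPM in library 16, SCs had 0.186 CPM in library 11 and 4.89 CPM in library 12, and IHCs had 0.0337 CPM in the library of day 74 and 11.1 CPM in the library of day 75. OHC (P7) library 15 also held the collagen genes *Col1a2* and *Col3a1*, at 223 and 119 CPM, whereas library 14, in which *Lmo3* was 50.7 CPM, had 0 counts of both. A link between these genes and the *Lmo3* count was not tested.

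*Lmo2* (ENSMUSG00000032698, chromosome 2 from 103798143 to 103822035), a gene of blood and endothelium, had 69 counts in cHC library 16 and between 0 and 2 in each other library. That library also held 3.66 CPM of the macrophage gene *C1qa*, which was at or under 0.0425 CPM elsewhere, while *Ptprc*, *Kdr* and *Cldn5* had at most 1 count in it. Its 6 blood and macrophage markers summed to 4.70 CPM, against 10.7 CPM in cHC library 13. Their part in the *Lmo2* count was not tested. *Lmo2* and *Ldb2* did not pass the filter on low counts.

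*Ldb1* (ENSMUSG00000025223, chromosome 19 from 46107083 to 46119704) was counted in every library. SC library 11 held 155 CPM, while SC library 12 held 34.2 CPM and the other 8 libraries between 21.4 and 60.1 CPM. OHCs (P22) were lowest, at 25.8 and 21.4 CPM, and IHCs were at 52.4 and 47.1 CPM. No comparison passed, the lowest FDR being 0.179 for OHCs (P22) against SCs (log2 fold change -2.00, SE 0.87). A stretch of 177 exon bases is shared with *Pprc1* on the opposite strand, and whether counting used strand is not given in the sources used here, so reads there cannot be assigned with certainty. *Ldb2* (ENSMUSG00000039706, chromosome 5 from 44863372 to 45190946) had 38 counts in the IHC library of day 74 and at most 4 in any other. The 6 blood and macrophage markers summed to 26.8 CPM in that library, with *Ptprc*, *C1qa* and *Csf1r* at 0, and to 33 CPM in the IHC library of day 75, which held 1 count of *Ldb2*. All 5 endothelial markers together reached 0.135 CPM in the former. A link between these markers and the *Ldb2* count was not tested.

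**Figure D3:**
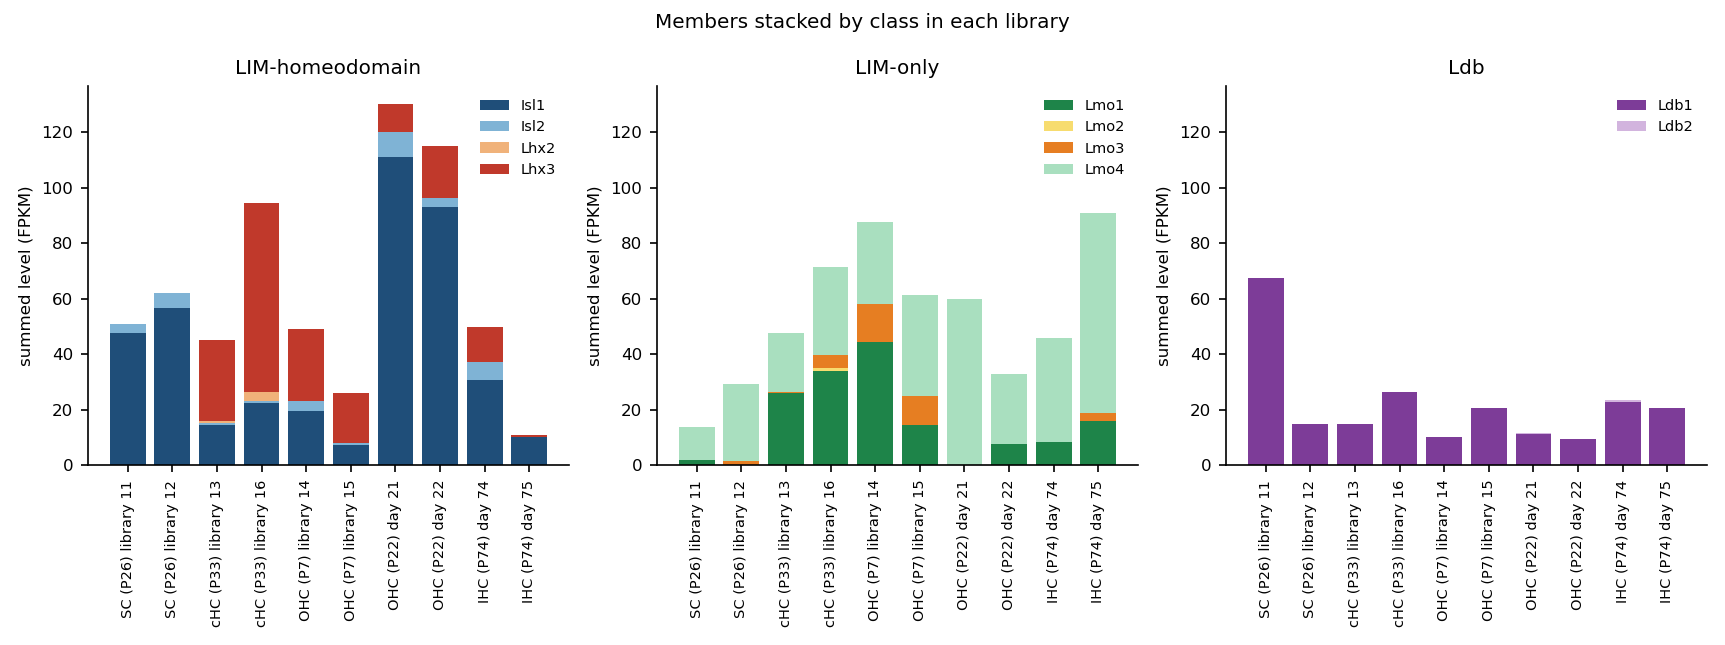
Level per length (FPKM, linear axis shared by the 3 panels) of the members stacked by class, with 1 bar per library and no error bars. LIM-homeodomain genes sum highest in OHCs (P22), at 130 and 115 FPKM, *Ldb1* stands out in SC library 11, and *Lmo2*, *Ldb2* and *Lhx2* are too low to see in most bars.

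Set against Ldb, summed by FPKM, LIM-homeodomain genes stood 11.4 and 12.3 times as high in the OHC (P22) libraries of days 21 and 22, and between 0.531 and 4.80 times as high in the other 8. LIM-only genes stood 0.201 and 1.95 times as high as Ldb in SC libraries 11 and 12, and between 1.97 and 8.55 times as high in the 8 hair cell libraries. Within the LIM-only class *Lmo4* made up 44.8% and 44.3% in cHCs and 33.6% and 59.6% in OHCs (P7), and at least 77.4% in the 6 other libraries. With the total exon length that share was 45.8% or less in cHCs and OHCs (P7) and at least 63.4% in the others. These sums are of RNA, and they were not tested.

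Over all 5 cell types, 1 of the 8 tested members, *Lhx3*, differed in the joint edgeR test (FDR = 0.0315), against 7.81% of the 16891 genes tested. *Isl1* had an FDR of 0.0637, *Lhx2* of 0.0842 and *Lmo3* of 0.210. In the 10 pairwise comparisons 4 calls were made, each of *Lhx3*, so the counts turn on a single gene. It was 1 of 8 in cHCs minus SCs (1.84% of all genes called), OHCs (P7) minus SCs (3.41%), OHCs (P22) minus SCs (8.02%) and IHCs minus SCs (2.65%). It was 0 of 8 in OHCs (P7) minus cHCs (0.343%), OHCs (P22) minus cHCs (3.18%), IHCs minus cHCs (0.924%), OHCs (P22) minus OHCs (P7) (0.551%), IHCs minus OHCs (P7) (0.379%) and IHCs minus OHCs (P22) (1.46%). At an unadjusted p under 0.05, 3, 3, 2 and 1 of the 8 members were counted in the 4 comparisons with SCs, where 15%, 18.9%, 25.7% and 17.4% of all genes were. In the last 6 comparisons the counts were 1, 2, 2, 2, 0 and 2 of 8, beside 11.2%, 19.3%, 12.8%, 13.9%, 12.5% and 15.2% of all genes. Over the 80 pairwise tests of members, DESeq2 made 14 calls and limma-voom 6, where they called 12.5% and 4.74% of all gene tests. The 4 calls of edgeR stood beside 2.28%. The unadjusted counts and those of DESeq2 and limma-voom include *Lhx2*, which was tested only because of its counts in cHCs.

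**Figure D4:**
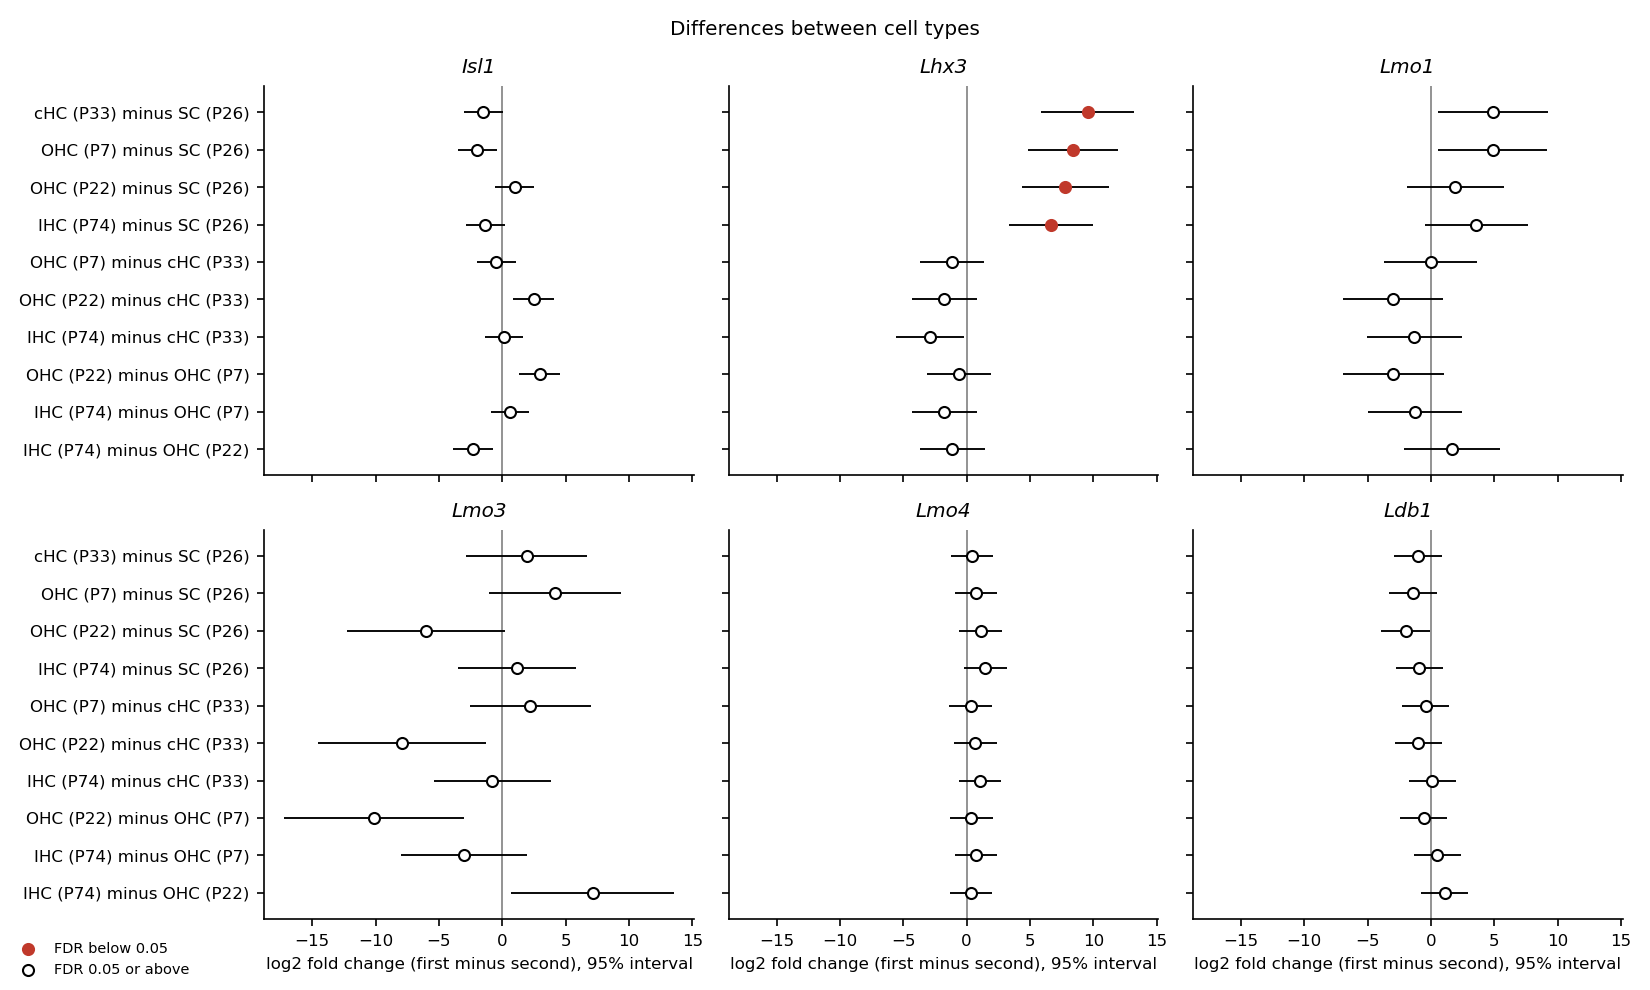
Log2 fold changes of 6 members in the 10 comparisons of cell types, first minus second as named on the left, with 95% intervals from the edgeR model. Red points have an FDR below 0.05, and only *Lhx3* against SCs is red, from 6.64 in IHCs to 9.54 in cHCs. The intervals of *Lmo3* are wide throughout, and widest where they involve OHCs (P22), a group that holds 1 count.

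Among the 8 other LIM-homeodomain genes listed, none was general in hair cells. *Lhx8* had 0 counts in all libraries, and *Lhx1*, *Lhx4* and *Lhx5* did not exceed 0.211 CPM. Single libraries held *Lmx1b* at 35.7 CPM (the IHC library of day 75) and 8.33 CPM (cHC library 16), *Lhx6* at 7.06 CPM (cHC library 16), *Lhx9* at 5.73 CPM (the OHC (P22) library of day 22) and *Lmx1a* at 2.15 CPM (SC library 11). Only *Lmx1b* was tested, and it passed in 0 of the 10 comparisons (lowest FDR 0.283), with 1 at an unadjusted p under 0.05 in edgeR.

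Of 12 partners of Ldb and Lmo proteins, 11 were tested and 1, *Gata2*, differed among cell types (FDR = 0.0343), a share near the 7.81% of all genes. *Gata2* encodes a zinc finger factor that joins Lmo2 and Ldb1 in blood cells. It was at 287 and 470 CPM in SC libraries 11 and 12, at 107 and 12.7 CPM in cHC libraries 13 and 16, at 18.2 and 27.9 CPM in IHCs, at 0.218 and 3.29 CPM in OHCs (P7) and at 0.176 and 6.19 CPM in OHCs (P22). It was lower than in SCs in OHCs (P7) (log2 fold change -7.79, SE 1.85, FDR = 0.0453) and in OHCs (P22) (-6.87, SE 1.77, FDR = 0.0377). *Gata3*, needed for the development of the cochlea, was between 99.9 and 857 CPM in all libraries. The median log2 fold change of the 11 partners was 0.51 from SCs to cHCs, beside 0.03 for all genes tested, and -0.81 from cHCs to OHCs (P22), beside -0.19.

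The motor neuron genes that were counted, other than *Ache*, were at or near 0. Of the motor neuron genes activated by the Isl1 and Lhx3 complex, *Mnx1* had 0 counts in all 10 libraries, and *Chat* and *Slc5a7*, the acetylcholine synthesis enzyme and the choline transporter, did not exceed 0.0531 CPM. *Ache*, encoding acetylcholinesterase, was between 0 and 13.7 CPM and passed in 0 of 10 comparisons (lowest FDR 0.378, none at an unadjusted p under 0.05 in edgeR). *Slc18a3*, also listed, was not among the genes counted, so its level is not known here. Of the 5 neuron markers, *Prph* had 0 counts and *Tubb3* at most 1.68 CPM, while *Snap25* and *Nefl* reached 361 and 358 CPM in hair cell libraries. *Rbfox3*, a neuronal splicing factor gene, was at 24.7 and 44.8 CPM in cHC libraries 13 and 16, at 9.66 CPM in the IHC library of day 75 and at most 1.61 CPM in the other 7.

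**Figure D5:**
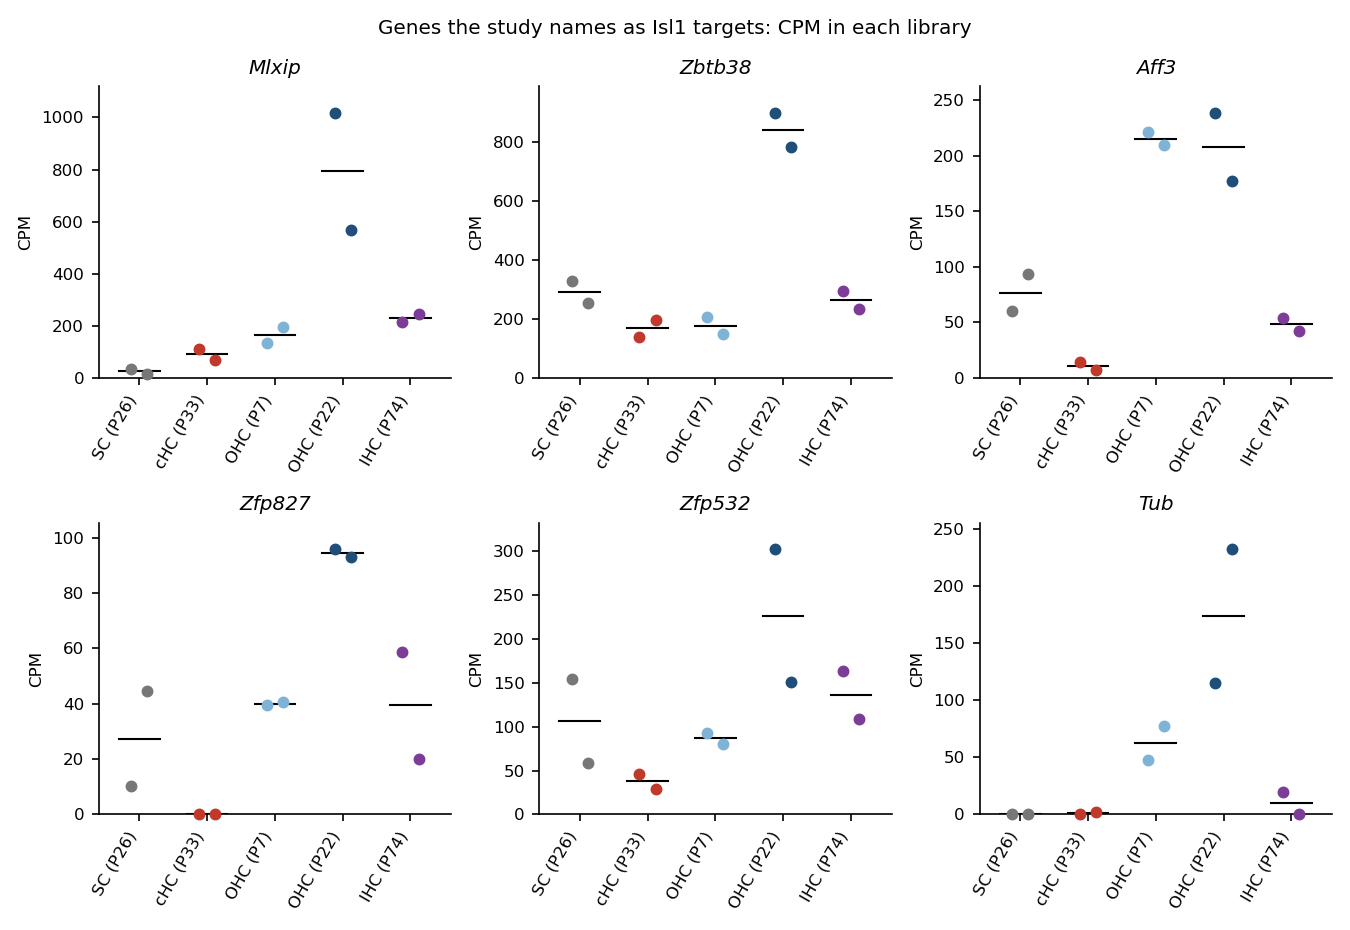
CPM (linear axes from 0) of the 6 genes that the study names as Isl1 targets. Points are libraries, placed by library number within each cell type, and lines are means of 2. *Zfp827* and *Aff3* are lowest in cHCs, at 0.0851 to 0.178 and 6.81 to 14.8 CPM, and all 6 have their highest library in OHCs (P22).

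The study names 6 transcription factor genes as targets of Isl1 in other tissues. They were picked from genes that it called different among SCs, cHCs and OHCs and higher in OHCs, partly in these libraries. Neither the count of calls among them nor their direction in OHCs is therefore independent evidence. The shares of all genes are given for scale only. All 6 were tested, and 5 of them differed among cell types (FDRs between 0.00426 and 0.0276), against 7.81% of all genes, *Zfp532* being the exception. From cHCs to OHCs (P22), 4 of 6 were higher and 0 lower, against 3.18% of all genes called, and the median log2 fold change was 3.70, beside -0.19 for all genes tested. *Zfp827* gave 9.40 (SE 1.34, FDR = 0.00572), *Aff3* 4.27 (SE 0.66, FDR = 0.00877), *Mlxip* 3.14 (SE 0.61, FDR = 0.0189) and *Zbtb38* 2.32 (SE 0.46, FDR = 0.0207). The count was 2 of 6 without the OHC (P22) library of day 21 or with only these 2 cell types in the fit. *Tub*, which encodes a tubby-family protein, had 115 and 233 CPM in OHCs (P22) and 0.0851 and 2.11 CPM in cHCs.

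The same genes did not move as 1 group between the other cell types. From SCs to cHCs, 2 of 6 fell and 0 rose, against 1.84% of all genes called. These 2 were *Zfp827* (log2 fold change -7.61, SE 1.25, FDR = 0.00864) and *Aff3* (-2.83, SE 0.62, FDR = 0.0469). *Zfp827* had 10.1 and 44.5 CPM in SC libraries 11 and 12 and 0.0851 and 0.178 CPM in cHC libraries 13 and 16. Both genes were higher in OHCs (P7) than in cHCs, by 8.16 (SE 1.27, FDR = 0.0281) and 4.32 (SE 0.66, FDR = 0.0278). In the same libraries *Isl1* gave -0.46 (SE 0.69, FDR = 0.888). A link between the level of *Isl1* and these genes was not tested. *Mlxip* was higher than in SCs in OHCs (P7), OHCs (P22) and IHCs (log2 fold changes 2.67, 4.95 and 3.17, FDRs 0.0346, 0.00127 and 0.0186), and *Tub* in OHCs (P7) and OHCs (P22) (9.31 and 10.79, FDRs 0.0416 and 0.0152).

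The genes with the levels most like *Isl1* over the 10 libraries, among 16883 tested genes that are no members, were *Rheb* (Pearson's r of log2 CPM 0.92), *Fyn* (0.90) and *Gm10154* (0.90). *Rheb* encodes a small GTPase upstream of mTOR and *Fyn* a Src-family kinase. *Fyn* had mean levels of 41.6 CPM in OHCs (P22), 30.5 in SCs and 4.33 to 8.44 in the other 3 cell types. Those most like *Lhx3* were *Gm14025* (0.97), *Gm7173* (0.97) and *Chga* (0.97), which encodes the secretory granule protein chromogranin A. *Chga* followed the order of *Lhx3*, from 81.9 CPM in cHCs through 38.1 in OHCs (P7), 13.9 in OHCs (P22) and 9.25 in IHCs to 0.164 in SCs. These are descriptions over 10 libraries that share cell type and depth. By Spearman's rho, 2 of the 3 genes were the same for *Isl1* and 0 of 3 for *Lhx3*. Between the members themselves, *Isl1* went with *Isl2* (r = 0.76) and against *Lmo3* (r = -0.74) and *Lmo1* (r = -0.71), and it had r = -0.21 with *Lhx3*.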

How the data were processed

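The study sequenced amplified cDNA of handpicked cochlear cells. The authors deposited raw counts per gene, made by trimming reads with Cutadapt, mapping them to mm9 with STAR and BWA and counting with HTSeq, with no normalization. Versions other than CASAVA 1.7 and strand settings are not given in the sources used here.

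Each file was used for the library in its name, checked against the library-numbered CPM columns of the study's supplementary data over genes with at least 10 counts (coefficient of variation of the ratio at most 0.000137%, and at least 119% for any other file). Counts were fitted with edgeR 4.0.16 in R 4.3.3 (TMM, filterByExpr by cell type, 1 quasi-likelihood model of 10 libraries, 2-sided, Benjamini-Hochberg adjustment over 16891 genes, threshold 0.05). The SE is the log2 fold change divided by the square root of F. Log2 CPM used a prior count of 2. Title series were set here from the library titles. They are libraries with the prefix Sample_ (12, 13 and 15), and without it those numbered 11, 14 and 16 and those numbered 387 to 395. Alternatives used DESeq2 1.42.0 and limma 3.58.1, other size factors and filters, the files as attached, fewer cell types, the title series as a block, and leaving out each library. The fits were tested on simulated data with 200 genes changed in cHCs, for the comparison of cHCs with SCs only. That does not cover the other comparisons or decide between the tools. The members and lists were chosen with earlier results of these data known. From each related list the text names genes that passed the joint test, otherwise at most the 3 most abundant. *Gata3* and *Zfp532*, which did not pass it, were named in addition. A gene at or near 0, or named for a value in a single library, was also named after its values were seen. Likeness named the 3 highest Pearson correlations. Gene positions are GENCODE for mm9, and promoters are RefSeq for GRCm38.p6. The single-cell and qPCR data were not analysed here.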

Additional observations from a re-analysis of the deposited data

How the results depend on the processing

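No paired analysis was possible by replicate number, because each is the number of a single library. The title series served as a block for SCs, cHCs and OHCs (P7). The count of members differing among cell types was 1. It became 4 with DESeq2 and 3 with limma-voom, both with *Lhx2* among them, and 3 without a filter on low counts. In these settings 26%, 13.5% and 17.4% of all genes were called, against 7.81%. The count was 0 with each file taken as attached to its record, where 0 of 16891 genes were called. It ran from 0 to 2 when a library was left out, at 0 without SC library 11, SC library 12 or cHC library 16. The 4 pairwise calls stood beside 2.28% of all gene tests called. They became 14 with DESeq2 (12.5%), 8 without the filter (4.97%) and 2 when a fit held just the compared types (2.03%). They were 0 with at least 10 counts in every library (3.54%), which keeps 3 members and drops *Lhx3*. They were also 0 with the files as attached, where 0 of 168910 gene tests passed, so this 0 is not particular to the members. They ran from 0 to 4 when a library was left out, at 1 without SC library 11 and 0 without SC library 12.

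The *Isl1* fold change from cHCs to OHCs (P22), not called with edgeR, was called with DESeq2 (2.56) and limma-voom (2.40), and ran from 2.19 to 2.80 when a library was left out. The *Lhx3* fold change from SCs to cHCs ran from 8.81 to 10.18 when a library was left out, with FDRs between 0.000675 and 0.0781, and was 9.62 (FDR = 0.00547) with the title series as a block, which gave 8.50 (FDR = 0.00601) in OHCs (P7). With the files as attached, in which libraries change cell type, it was -0.70 (and *Isl1* from cHCs to OHCs (P22) was 1.89), and *Lhx3* gave -0.021 in OHCs (P22) and -1.16 in IHCs against SCs. In fits of just the compared types, the FDR of *Lhx3* against SCs was 0.0533 in OHCs (P22) and 0.165 in IHCs. The count of study-named Isl1 targets higher in OHCs (P22) than in cHCs, recomputed after seeing the data, was 4 and ran from 2 to 6 when a library was left out.

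With 2 libraries per cell type and large gaps between duplicates, a member whose test did not pass is not shown to be equal. The causes of the changes between tools were not tested.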
